A study of Drosophila mojavensis with 127 samples.

Results

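The response of adult gene expression to the host cactus was examined in males of the Organ Pipe National Monument population of the fly Drosophila mojavensis. These males account for 16 of the 127 arrays of the series, taken by population and sex as given in the sample titles. They form 4 groups of 4 replicates: mated males on agria, nonmated males on agria, mated males on organ pipe and nonmated males on organ pipe. All were wild-type and came from the Arizona stock named OPNM08, so the population is represented by a single stock. Agria is pitaya agria, Stenocereus gummosus, and organ pipe is Stenocereus thurberi. The flies had grown up on fermenting tissue of one cactus or the other. The labels give neither the age of the flies nor the tissue from which RNA was taken. The comparison was organ pipe minus agria with both mating states weighted equally, and the main counts, correlations and named differences that draw on replicate 1 of the mated males on agria, an array that stood apart, are also given without it. Females of the same population (16 arrays) and males of the other populations were used for comparison. Those males came from Punta Onah (16 arrays), San Quintin (16 arrays, counted as 14 replicates) and Punta Prieta (15 arrays).

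Drosophila mojavensis is a desert fly whose larvae feed on necrotic, fermenting cactus together with the yeasts and bacteria that live in it. Populations use different cacti: agria is the main host in Baja California and organ pipe the main host on the mainland. The cacti differ in chemistry, and rearing on one or the other is known to alter development time and the cuticular hydrocarbons that serve as mating cues. In males of many insects, the testis and accessory glands contribute a large set of transcripts that are rare in females, while ovaries contribute a large female set. In bulk samples such as these, fewer cells of a type and less RNA per cell cannot be told apart.

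Each array gave 14528 transcript values on a log2 scale. The identifiers were transcript numbers that the files do not pair with gene names, and 0 of them matched the 15130 genes of the RefSeq table supplied for the species, so transcripts are named by number, at most 2 in each direction per comparison. The residual spread within groups was wider in these males, with a median SD of 0.338 over transcripts, than in any of the other 7 combinations of population and sex, where it lay between 0.187 and 0.274. Without replicate 1 of mated males on agria it was 0.301, still the highest of the 8. Nothing in the labels says whether replicates were independent cultures. The p-values therefore reflect variation among arrays, part of which may be technical. In the main fit that variation was pooled over all 32 groups of the series, with a median SD of 0.274, and not taken from these males alone.

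The labelled sex was checked with a sex index, the mean log2 value of the 200 most male-biased transcripts minus that of the 200 most female-biased ones, both sets chosen from the other 3 populations. In 15 of the 16 male arrays the index lay between 3.67 and 4.86, and in females of the population it lay between -4.69 and -3.82. Over all males of the series except the remaining array it lay between 2.76 and 5.00, so values below 3.67 occurred in other populations. The 200 female-biased transcripts averaged up to 10.49 in those males. Replicate 1 of mated males on agria had an index of 1.04, between the sexes, and the other arrays of its group had 4.86, 4.57 and 4.54. In that array the 200 female-biased transcripts averaged 11.40, against 8.53 to 9.12 in the other 15 arrays and 12.00 to 12.66 in females. It held the highest value of the 16 arrays for 2323 of the 2967 female-biased transcripts and the lowest for 1576 of the 2306 male-biased ones. The array labelled replicate 3 of mated males on organ pipe had the next lowest index, 3.67, and the narrowest spread of values within an array, with an SD of 1.73 against 1.79 to 1.90 elsewhere. Its 200 female-biased transcripts averaged 9.12. Nonmated males on organ pipe were the tightest group, with indices of 4.70, 4.65, 4.73 and 4.64 and a median SD over transcripts of 0.158, against 0.260 in nonmated males on agria, 0.348 in mated males on agria (0.233 without replicate 1) and 0.376 in mated males on organ pipe.

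**Figure D1:**
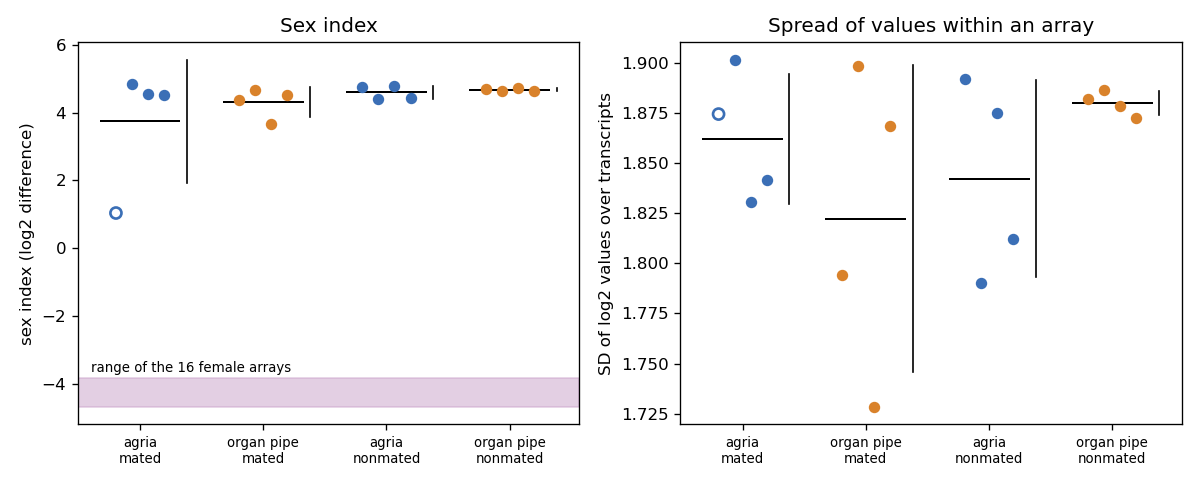
Left, sex index (log2 difference) of each of the 16 male arrays by host and mating state, with the shaded band giving the range of the 16 females of the population. Right, SD of the log2 values over all transcripts within each array. Points are arrays, the open circle is replicate 1 of mated males on agria, horizontal lines are group means and vertical lines show the mean ± SD of 4 arrays. The open circle lies at 1.04 on the left, apart from the other 15 arrays at 3.67 to 4.86.

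The sex index overlapped widely between the hosts. It averaged 4.49 ± 0.35 (SD, n = 8) on organ pipe and 4.17 ± 1.28 (SD, n = 8) on agria, a difference of 0.32 (exact permutation test within mating states, two-sided, p = 0.746). Without replicate 1 of mated males on agria the agria mean was 4.62 ± 0.18 (SD, n = 7) and the difference was -0.13 (exact permutation test, p = 0.496), so that its sign rested on that array.

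Between the hosts, 1756 of 14528 transcripts, or 12.1%, passed the test at an adjusted p under 0.05 in males of this population. Of these, 684 (4.71% of all transcripts) were higher on organ pipe and 1072 (7.38%) were lower. Most of the differences were small: the median size among the called transcripts was 0.46 on the log2 scale, and 24 transcripts rose and 15 fell by at least 2-fold. Over all transcripts the median size of the difference was 0.164 and the largest 1.58, while the median standard error was 0.137. Without replicate 1 of mated males on agria, 1647 transcripts (11.3%) passed, 721 (4.96%) of them higher and 926 (6.37%) lower, and 28 rose and 16 fell by at least 2-fold. The 2 sets shared 1254 transcripts, 71.4% of the first and 76.1% of the second, all with the same sign. Of the 39 and 44 transcripts with 2-fold differences, 37 were shared. These calls rest on limma with a spread estimated over all 32 groups of the series. Fitted to the 16 arrays of these males alone, where the median SD was 0.330 with 12 residual degrees of freedom, limma called 0 transcripts (1900 at an unadjusted p under 0.05, smallest adjusted p 0.0944), and on the 15 remaining arrays it also called 0 (2079 at an unadjusted p under 0.05, smallest adjusted p 0.0995).

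The 2 versions of the test differ by only the array that stood apart, and 1254 transcripts were called in both. The same sign in mated and in nonmated males was then required, a condition that removed few. It left 1243 transcripts, 552 higher on organ pipe and 691 lower. Of these, 975 belonged to neither sex-biased class, 103 were male-biased and 165 female-biased. Among all 14528 transcripts these classes, defined below, held 9255, 2306 and 2967. The sex-biased calls depended on the array that stood apart, so requiring a call with and without it bears on this split. In the fit without that array, the median size among the 1243 was 0.496 on the log2 scale. Of the 1243, 28 rose and 16 fell by at least 2-fold. Complete separation of the hosts was rare. For 20 transcripts (0.138% of all), 9 higher and 11 lower on organ pipe, the 8 agria arrays and the 8 organ pipe arrays did not overlap, and for 26 (0.179%) they did not overlap once replicate 1 of mated males on agria was left out. All 20 of the first and 24 of the second were also called.

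The named transcripts were the 2 in each direction with the smallest p-values among those 1243. FBtr0168871 was lower on organ pipe. On agria its log2 value was 10.97, 11.38, 11.33 and 10.76 in mated males and 11.26, 11.21, 11.20 and 11.27 in nonmated males. On organ pipe it was 9.84, 10.79, 10.07 and 10.57 in mated males and 10.64, 10.54, 10.50 and 10.56 in nonmated males. In nonmated males the groups were far apart, while in mated males the highest organ pipe array (10.79) just overlapped the lowest agria array (10.76). It fell by 0.73 ± 0.11 (SE) on the log2 scale, a 1.66-fold difference (limma, adjusted p = 2.85e-05), and the difference was -0.76 ± 0.12 without replicate 1 of mated males on agria (limma, adjusted p = 1.5e-05). The second transcript that fell, FBtr0163800, was abundant and changed by less. On agria its log2 value was 13.10, 12.63, 12.66 and 12.62 in mated males and 12.54, 12.50, 12.81 and 12.93 in nonmated males. On organ pipe it was 12.11, 12.47, 12.38 and 12.33 in mated males and 12.38, 12.35, 12.36 and 12.35 in nonmated males. All 8 agria arrays lay above all 8 organ pipe arrays. The highest value, 13.10, came from the array that stood apart. The difference was -0.38 ± 0.06 (limma, adjusted p = 2.85e-05) and -0.32 ± 0.06 without that array (limma, adjusted p = 0.000166).

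FBtr0175494 was higher on organ pipe. On agria its log2 value was 12.14, 11.77, 11.58 and 12.01 in mated males and 11.94, 11.96, 11.56 and 11.44 in nonmated males. On organ pipe it was 12.01, 12.48, 12.45 and 12.46 in mated males and 12.32, 12.27, 12.06 and 12.31 in nonmated males. The nonmated groups did not overlap, and in mated males only organ pipe replicate 1 (12.01) lay within the agria range. The difference was 0.49 ± 0.08 (SE), or 1.41-fold (limma, adjusted p = 4.81e-05), and 0.54 ± 0.08 without the array that stood apart (limma, adjusted p = 1.5e-05). FBtr0168340 had the largest difference of the 4 named transcripts and the widest spread on agria. On agria its log2 value was 9.83, 10.51, 9.49 and 10.89 in mated males and 10.00, 10.51, 9.46 and 9.46 in nonmated males. On organ pipe it was 10.48, 11.10, 11.10 and 10.92 in mated males and 10.76, 11.29, 10.77 and 10.71 in nonmated males. The mated groups overlapped and the nonmated groups did not. The difference was 0.87 ± 0.15, or 1.83-fold (limma, adjusted p = 5.37e-05), and 0.81 ± 0.15 without the array that stood apart (limma, adjusted p = 0.000212). In mated males alone its call was lost without that array, with a difference of 0.60 ± 0.22 (limma, adjusted p = 0.129) against 0.72 ± 0.21 with it (limma, adjusted p = 0.0207). In the fit to the 16 arrays alone, the adjusted p of these 4 transcripts lay between 0.0944 and 0.184. None of the 4 was sex-biased by the criteria used here.

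**Figure D2:**
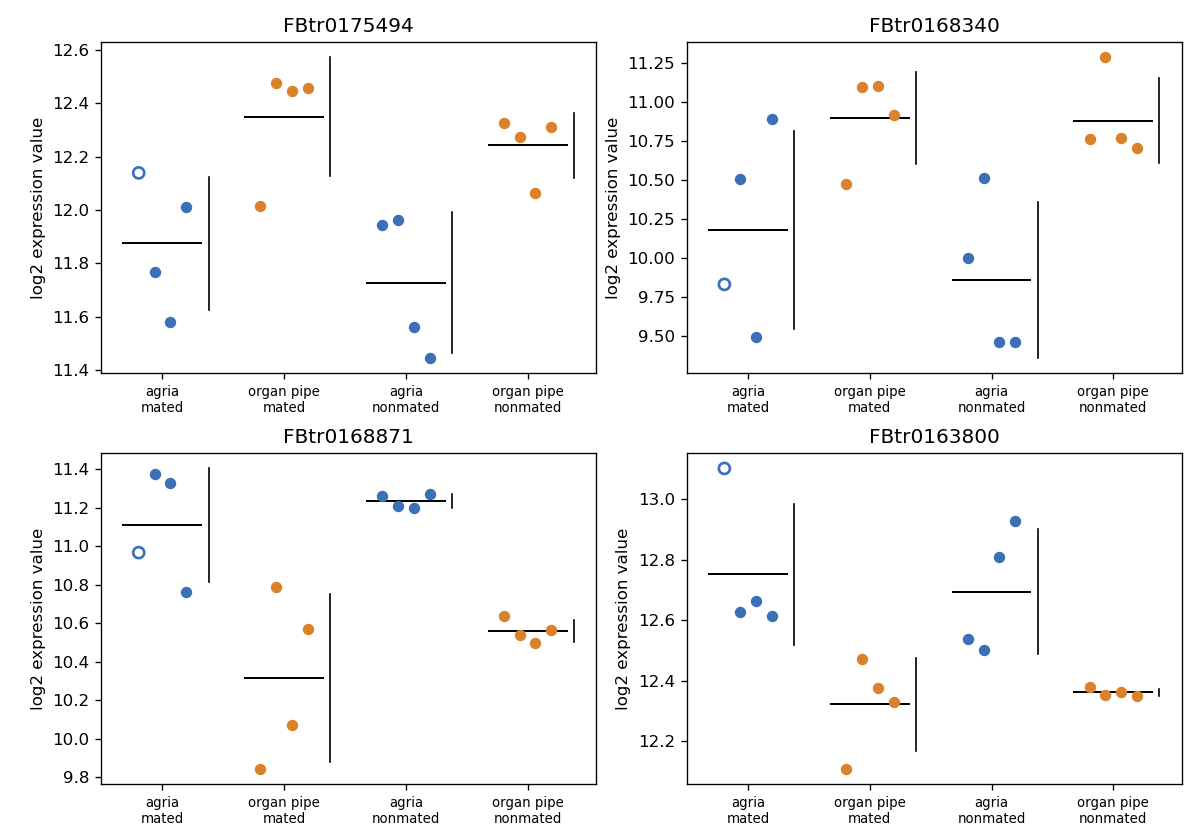
Log2 expression value of the 4 named transcripts in each of the 16 male arrays by host and mating state. Points are arrays, the open circle is replicate 1 of mated males on agria, horizontal lines are group means and vertical lines show the mean ± SD of 4 arrays; the axes do not start at 0. FBtr0163800 has no overlap between the hosts, and organ pipe nonmated arrays of FBtr0168871 lie at 10.50 to 10.64 against 11.20 to 11.27 on agria.

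The number of host-dependent transcripts moved with single arrays other than the one that stood apart. Leaving out each array in turn gave 975 to 2601 calls. The count was more than 1.5 times lower without replicate 3 of nonmated males on agria (975), without replicate 4 of the same group (1140) and without replicate 2 of nonmated males on organ pipe (1110). With replicate 1 of mated males on agria already left out, removing each of the other arrays gave 506 to 2750 calls. Leaving out both arrays with the lowest sex index, replicate 1 of mated males on agria and replicate 3 of mated males on organ pipe, gave 1109.

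**Figure D3:**
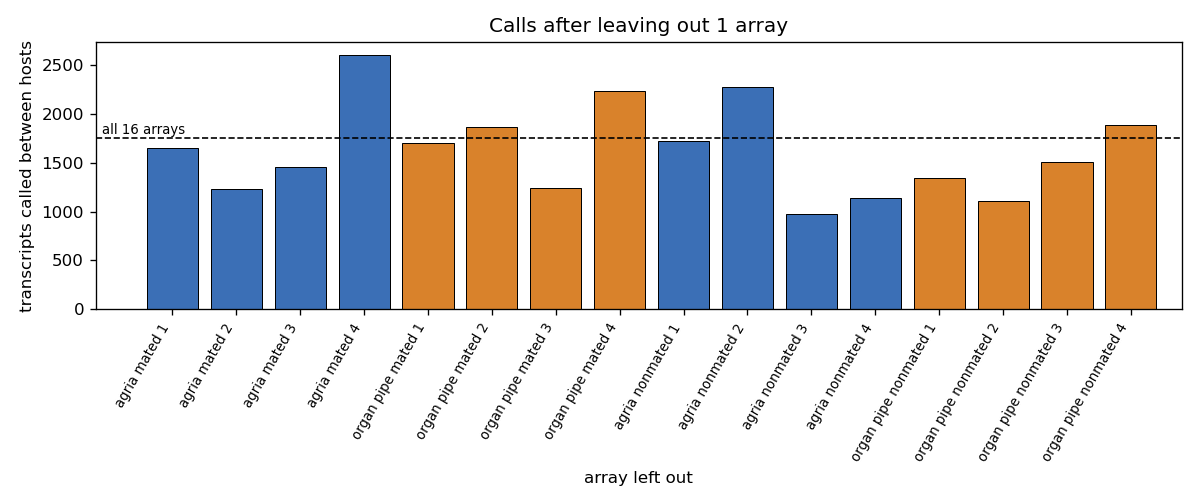
Number of transcripts called between the hosts after each of the 16 arrays was left out in turn. Bars are coloured by the host of the array left out, blue for agria and orange for organ pipe, and the dashed line marks the 1756 calls from all 16 arrays. The bars run from 975 without agria nonmated replicate 3 to 2601 without agria mated replicate 4.

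Transcripts were classed by their sex difference in the 3 other populations as male-biased (2306), female-biased (2967) or neither (9255). In the class biased to neither sex, 582 transcripts were higher and 609 lower on organ pipe, 12.9% of the class and near the 12.1% over all transcripts, and these counts were 565 and 595 (12.5%, against 11.3% over all) without the array that stood apart. The sex-biased classes turned on that array. With all 16 arrays, 13 female-biased transcripts were higher and 418 lower on organ pipe, 14.5% of the class, with a median difference of -0.13 over the class against a median within 0.01 of 0 over all transcripts. Without the array, 98 were higher and 154 lower (8.49%). Male-biased transcripts went from 89 higher and 45 lower (5.81%) to 58 higher and 177 lower (10.2%), with a class median of -0.11, so that the direction of the majority reversed. With both arrays of lowest sex index left out, the male-biased class had 56 higher and 54 lower, and the female-biased class 66 higher and 86 lower. Quantile normalization or a shift of every array to the same median kept the direction of the majority in both classes, with all 16 arrays and with 15. In the array that stood apart, the 200 male-biased and 200 female-biased transcripts averaged 12.44 and 11.40. The part of these levels in the counts was not tested beyond the repeat without that array.

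**Figure D4:**
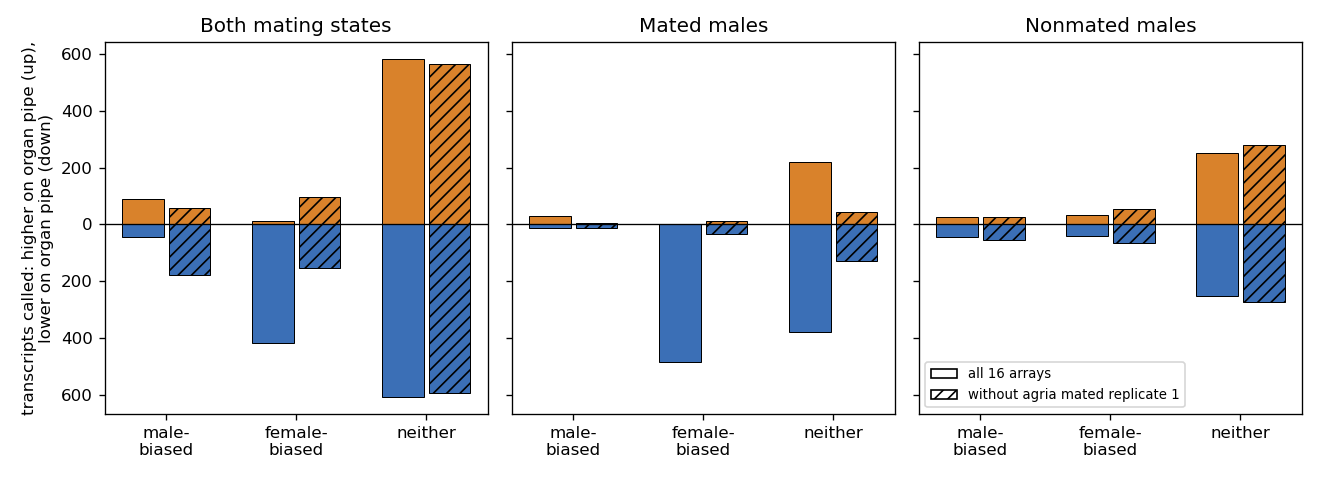
Number of transcripts called between the hosts by sex-bias class, for both mating states together, mated males and nonmated males. Bars above 0 count transcripts higher on organ pipe and bars below 0 transcripts lower on organ pipe, with plain bars for all 16 arrays and hatched bars without agria mated replicate 1. In mated males the 484 female-biased transcripts lower on organ pipe become 34 once that array is left out, while in nonmated males the female-biased bars are 33 and 40 with all arrays and 55 and 67 without it.

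Within mated males, 1125 transcripts (7.74%) passed the test, 251 (1.73%) higher and 874 (6.02%) lower on organ pipe. Female-biased transcripts made up 484 of the 874, and 16.3% of the 2967 in that class were called, against 7.74% of all transcripts. Without replicate 1 of mated males on agria, 236 transcripts (1.62%) passed, 62 (0.427%) higher and 174 (1.2%) lower, and 208 of them were among the 1125. Female-biased transcripts then numbered 13 higher and 34 lower, 1.58% of the class against 1.62% of all. The mated count also moved by more than 1.5 times without replicate 4 on agria (2159) and without replicates 1, 2, 3 and 4 on organ pipe (421, 2469, 165 and 2655). It was 2 without both arrays of lowest sex index. Fitted to the arrays of these males alone, limma called 0 in mated males (1427 at an unadjusted p under 0.05, smallest adjusted p 0.476).

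The 4 transcripts named for mated males were all biased to neither sex. FBtr0164487, a transcript of the lowest level quartile, lay at 8.55 to 8.97 on agria and at 9.77, 8.97, 10.88 and 9.72 on organ pipe. It was 1.11 ± 0.19 (SE, log2) higher on organ pipe (limma, adjusted p = 0.000289), and 1.04 ± 0.21 higher without the array that stood apart (limma, adjusted p = 0.00476). Organ pipe replicate 2 sat at the top of the agria range and the other 3 arrays lay above it. FBtr0162886 lay at 8.12 to 9.78 on agria and at 9.70 to 10.94 on organ pipe, with a slight overlap and a difference of 1.25 ± 0.24 (limma, adjusted p = 0.000716), and of 1.28 ± 0.26 without the array (limma, adjusted p = 0.00661). FBtr0171612 lay at 12.09 to 12.55 on agria and at 11.81, 11.99, 11.26 and 11.54 on organ pipe, with no overlap. It differed by -0.73 ± 0.12 (limma, adjusted p = 0.000289), and by -0.68 ± 0.13 without the array (limma, adjusted p = 0.0047). FBtr0161182 lay at 12.57 to 13.12 on agria and at 11.94, 12.44, 11.98 and 12.53 on organ pipe, again with no overlap. Its difference was -0.65 ± 0.11 (limma, adjusted p = 0.000289), and -0.56 ± 0.12 without the array (limma, adjusted p = 0.00661), against -0.00 ± 0.11 in nonmated males.

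Within nonmated males, the 8 arrays of which had sex indices of 4.42 to 4.79, 645 transcripts (4.44%) passed the test, 310 (2.13%) higher and 335 (2.31%) lower on organ pipe. After a shift of every array to the same median the split was 412 higher and 294 lower, so the direction of the majority depended on the scaling. With replicate 1 of mated males on agria left out of the shared fit, 758 (5.22%) passed, 361 (2.48%) higher and 397 (2.73%) lower. In the sex-biased classes, 26 male-biased transcripts were higher and 43 lower, 2.99% of the class against 4.44% of all transcripts. Of the female-biased ones 33 were higher and 40 lower (2.46% of the class), which became 44 higher and 34 lower after the median shift. The count moved by more than 1.5 times without replicates 2, 3 and 4 on agria (1476, 51 and 57) and without replicates 1, 2 and 3 on organ pipe (161, 22 and 344). Fitted to the arrays of these males alone, limma called 0 in nonmated males (1154 at an unadjusted p under 0.05, smallest adjusted p 0.357).

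FBtr0165051 and FBtr0165773, both of the lowest level quartile, fell in nonmated males on organ pipe without overlap. FBtr0165051 lay at 8.35, 8.12, 8.60 and 8.39 on agria and at 7.34, 7.31, 7.51 and 7.36 on organ pipe, a difference of -0.98 ± 0.16 (SE, log2), or 1.97-fold (limma, adjusted p = 0.000268). In mated males it lay at 7.84 to 8.60 on agria and at 7.82 to 8.34 on organ pipe, ranges that overlapped. FBtr0165773 lay at 8.11 to 8.90 on agria and at 7.23 to 7.66 on organ pipe, a difference of -1.04 ± 0.19 (limma, adjusted p = 0.00106). Both transcripts thus reached in nonmated males on organ pipe levels below those of every other male array of the population. FBtr0168802 lay at 12.12, 12.22, 11.89 and 11.25 on agria and at 12.59, 12.55, 12.45 and 12.43 on organ pipe, a difference of 0.64 ± 0.11 (limma, adjusted p = 0.00106). FBtr0169422 lay at 11.36 to 12.36 on agria and at 12.95, 12.88, 12.57 and 12.36 on organ pipe. It was 0.88 ± 0.16 higher (limma, adjusted p = 0.00115) and overlapped the agria range only at 12.36. Its difference in mated males was 0.02 ± 0.16, and 0.06 ± 0.18 without the array that stood apart. The 4 nonmated differences do not draw on that array, and leaving it out of the shared fit gave adjusted p from 0.00026 to 0.000952 (limma).

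The host differences of mated and nonmated males shared 69 calls, all of the same sign. These were 6.13% of the mated calls, where 4.44% of all transcripts were called in nonmated males. They were 10.7% of the nonmated calls, where 7.74% of all were called in mated males. Without the array that stood apart 42 calls were shared. These were 17.8% of the 236 mated calls, against 5.22% of all, and 5.54% of the 758 nonmated calls, against 1.62% of all. Across the 14528 transcripts the mated and the nonmated differences, which share no array, correlated at r = 0.310, and at r = 0.405 without that array. Tested directly, the host difference depended on mating state for 42 transcripts (0.289%), 2 (0.0138%) with a higher and 40 (0.275%) with a lower difference in mated males. Of these 40, 30 were female-biased, 1.01% of the 2967 in that class against 0.289% of all transcripts. Without the array that stood apart limma called 0 (0%), with 1428 at an unadjusted p under 0.05 and a smallest adjusted p of 0.126. FBtr0164686, a female-biased transcript, had the smallest p-value of the 42. In mated males it lay at 11.50, 10.35, 10.04 and 10.38 on agria and at 8.76, 9.67, 9.68 and 9.85 on organ pipe. In nonmated males it lay at 9.97, 10.17, 9.61 and 10.10 on agria and at 10.54, 10.46, 10.42 and 10.36 on organ pipe. Neither pair of groups overlapped, and the hosts were in opposite order. The mated difference minus the nonmated difference was -1.56 ± 0.28 (limma, adjusted p = 0.00256) and -1.25 ± 0.27 without the array (limma, adjusted p = 0.126). FBtr0169615 went the other way. It lay at 9.26 to 10.07 on agria and 9.27 to 10.50 on organ pipe in mated males, and at 10.04 to 11.11 on agria and 9.16 to 9.81 on organ pipe in nonmated males. Its difference of differences was 1.66 ± 0.35 (limma, adjusted p = 0.025) and 1.56 ± 0.37 without the array (limma, adjusted p = 0.201). The count of 42 moved by more than 1.5 times in 15 of 16 repeats that left out 1 array, between 0 and 737, and by less only without replicate 4 of mated males on agria (62).

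Mating is known to change male transcript levels, and the mating response of males in the 3 other populations gave a set with which the host difference could be set side by side. Those males had 1060 transcripts higher and 238 lower when mated. In nonmated males of the Organ Pipe population, 86 of the 1060 were higher and 6 lower on organ pipe, 8.68% of the set against 4.44% of all transcripts (2.13% higher and 2.31% lower), with a median difference of 0.13 against a median within 0.01 of 0 over all transcripts. The counts were 97 and 8 in the fit without the array that stood apart, 93 and 4 after quantile normalization and 105 and 7 after the median shift. Of the 238 that were lower in mated males elsewhere, 3 were higher and 13 lower, with a median of -0.05. These few calls were 6.72% of the set against 4.44% of all transcripts. In mated males of the Organ Pipe population, 25 of the 1060 were higher and 102 lower, 12.0% of the set against 7.74% of all (1.73% higher and 6.02% lower), which became 8 and 18 without the array (2.45% against 1.62%). The mean of the 1060, relative to the mean of all transcripts in the same array, was 0.458, 0.371, 0.350 and 0.217 in nonmated males on agria and 0.488, 0.538, 0.420 and 0.558 in nonmated males on organ pipe. In mated males it was 0.625, 0.606, 0.443 and 0.626 on agria and 0.201, 0.733, 0.322 and 0.715 on organ pipe. The nonmated groups overlapped only through organ pipe replicate 3, and the mated groups overlapped widely. These transcripts were more abundant than most, with a median level of 11.19 against 10.54 over all, and 387 of them were in the highest level quartile. Level moved with the host difference as well, in quartiles of 3632 transcripts each. In nonmated males 168 transcripts of the highest quartile were higher and 62 lower on organ pipe (6.33%), with a median difference of 0.07. In the lowest quartile 9 were higher and 98 lower (2.95%, against 4.44% of all transcripts), with a median of -0.06. After quantile normalization these counts were 122 and 80 for the highest and 9 and 57 for the lowest quartile, and after the median shift 226 and 44, and 10 and 92. In mated males with all arrays the order was the opposite, with 28 of the highest quartile higher and 458 lower (13.4%). In the lowest quartile 77 were higher and 12 lower (2.45%, against 7.74% of all). The medians of the 2 quartiles were -0.10 and 0.18. Without the array that stood apart the counts became 19 and 72 (2.51%), and 5 and 6 (0.303%), against 1.62% of all. The medians were then -0.06 and 0.13, still of opposite sign. The part of transcript level in the counts for the 1060 was not tested beyond these scalings.

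In females of the same population 1 transcript (0.00688%) passed the host test, FBtr0166517, at 0.77 ± 0.14 (limma, adjusted p = 0.00547), with 1135 transcripts at an unadjusted p under 0.05. Mated males averaged 10.59 ± 0.36 (SD, n = 4) on agria and 11.05 ± 0.65 (SD, n = 4) on organ pipe for this transcript, and nonmated males 10.84 ± 0.23 (SD, n = 4) and 10.29 ± 0.17 (SD, n = 4). The male differences were thus of opposite sign, 0.46 ± 0.20 (SE) in mated males (limma, adjusted p = 0.134) and -0.54 ± 0.20 in nonmated males (limma, adjusted p = 0.097), and neither passed the test. Without the array that stood apart the mated difference was 0.34 ± 0.21 (limma, adjusted p = 0.382). The direct test of the male against the female host difference called 0 transcripts (0%) with all arrays (limma, 1276 at an unadjusted p under 0.05, smallest adjusted p 0.0589) and 3 (0.0206%) without the array that stood apart. Those 3 were biased to neither sex and had a higher host difference in males. They were named because they are so few, after their values had been seen. FBtr0173707 differed between hosts by 0.76 ± 0.11 (SE, log2) in males and 0.06 ± 0.10 in females, a difference of 0.70 ± 0.15 (limma, adjusted p = 0.0468). For FBtr0174019 the male minus female difference was 0.52 ± 0.11, and for FBtr0168330 it was 0.36 ± 0.08, both at the same adjusted p. The count ran from 0 to 42 when single arrays of males were left out. It was above 0 without replicates 1 and 4 of mated males on agria (3 and 42), replicates 1, 2 and 4 of nonmated males on agria (4, 25 and 1), replicates 1 and 4 of mated males on organ pipe (3 and 5) and replicate 4 of nonmated males on organ pipe (3).

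The signs of the male differences were mostly the same in females. Of the 684 transcripts higher on organ pipe in males, 541 (79.1%) had a positive difference in females, where 46.8% of all transcripts did, and of the 1072 lower ones 931 (86.8%) had a negative difference, where 53.2% of all did. Without the array that stood apart the shares were 70.6% and 84.1%. Over all transcripts the median size of the host difference was 0.164 in males and 0.102 in females. Across all transcripts the male and female host differences correlated at r = 0.507, and at r = 0.465 without that array. The 2 differences share no array but share the array design, the population and the processing.

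Males of Punta Onah, the other mainland population, had 5363 host-dependent transcripts (36.9%), 2430 (16.7%) higher and 2933 (20.2%) lower on organ pipe, and their response differed from that of the Organ Pipe males for 4611 transcripts (31.7%), 2415 (16.6%) with a higher and 2196 (15.1%) with a lower difference in Organ Pipe males. After quantile normalization the split was 2076 and 2375, so the direction of the majority depended on the scaling. Without the array that stood apart the count was 4667 (32.1%). FBtr0166760 had the largest of these named differences. In Organ Pipe males it averaged 10.48 ± 0.25 (SD, n = 8) on agria and 9.93 ± 0.41 (SD, n = 8) on organ pipe, and in Punta Onah males 7.58 ± 0.58 (SD, n = 8) on agria and 9.56 ± 0.90 (SD, n = 8) on organ pipe. The difference in Organ Pipe males minus that in Punta Onah males was -2.53 ± 0.21 (SE, log2; limma, adjusted p = 7.84e-17), and -2.55 ± 0.21 without the array (limma, adjusted p = 2.53e-16). The low value was that of Punta Onah males on agria. FBtr0169140 averaged 9.94 ± 0.33 (SD, n = 8) on agria and 10.45 ± 0.29 (SD, n = 8) on organ pipe in Organ Pipe males, and 11.17 ± 0.28 (SD, n = 8) and 10.07 ± 0.35 (SD, n = 8) in Punta Onah males. The hosts were in opposite order in the 2 populations, with a difference of 1.61 ± 0.22 (limma, adjusted p = 1.63e-08), also called without the array (limma, adjusted p = 3.99e-08). FBtr0165111 and FBtr0163870 differed by -1.95 ± 0.18 (limma, adjusted p = 1.94e-14) and 1.32 ± 0.19 (limma, adjusted p = 6.44e-08). Without the array these differences were -1.96 and 1.31, both called. Of the 684 transcripts higher on organ pipe in Organ Pipe males, 58 were called in the same and 138 in the opposite direction in Punta Onah males, and of the 1072 lower ones 143 and 216. Without the array it was 67 and 138 of 721, and 127 and 191 of 926. Across all transcripts the 2 host differences correlated at r = -0.109, and at r = -0.124 without the array.

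Males of San Quintin, in Baja California, had 706 host-dependent transcripts (4.86%), 349 (2.4%) higher and 357 (2.46%) lower on organ pipe. Their response differed from that of the Organ Pipe males for 2599 transcripts (17.9%), 1030 (7.09%) with a higher and 1569 (10.8%) with a lower difference in Organ Pipe males, and for 2551 (17.6%) without the array that stood apart. After the median shift the split was 1380 and 1312. Fitted to the groups compared alone, limma called 53. Of the transcripts higher on organ pipe in Organ Pipe males, 19.6% had a positive difference in San Quintin males, where 48.4% of all did, and of the lower ones 22.7% had a negative difference, where 51.6% of all did. Without the array the shares were 23.9% and 21.8%. In San Quintin males 1 of the 684 was called in the same and 21 in the opposite direction, and of the 1072 it was 17 and 114, while without the array it was 3 and 27 of 721, and 16 and 123 of 926. The host differences of the 2 populations correlated at r = -0.430 across transcripts, and at r = -0.395 without the array. FBtr0173421 averaged 11.35 ± 0.45 (SD, n = 8) on agria and 10.69 ± 0.35 (SD, n = 8) on organ pipe in Organ Pipe males, and 10.55 ± 0.64 (SD, n = 7) and 11.46 ± 0.27 (SD, n = 7) in San Quintin males, a difference of -1.50 ± 0.22 (limma, adjusted p = 3.42e-06). FBtr0174666, among the most abundant, averaged 13.94 ± 0.18 (SD, n = 8) and 13.55 ± 0.17 (SD, n = 8) against 13.48 ± 0.20 (SD, n = 7) and 13.76 ± 0.06 (SD, n = 7), a difference of -0.65 ± 0.09 (limma, adjusted p = 3.42e-06). In both transcripts the hosts were in opposite order in the 2 populations. The transcripts that were relatively higher in Organ Pipe males were FBtr0167595, at 1.06 ± 0.18 (limma, adjusted p = 3.64e-05), and FBtr0167336, at 0.90 ± 0.15 (limma, adjusted p = 2.14e-05). Without the array the differences of FBtr0173421, FBtr0174666, FBtr0167595 and FBtr0167336 were -1.56, -0.62, 1.12 and 0.92, all called. FBtr0167595 averaged 12.39 ± 0.68 (SD, n = 8) on agria and 13.09 ± 0.19 (SD, n = 8) on organ pipe in Organ Pipe males. Males of Punta Prieta, the other Baja California population, had 0 calls between hosts (limma, 0%, 384 at an unadjusted p under 0.05), also without the array that stood apart (524 at an unadjusted p under 0.05). Of the transcripts higher on organ pipe in Organ Pipe males, 76.6% had a positive difference in Punta Prieta males, where 58.5% of all did, and of the lower ones 59.5% had a negative difference, where 41.5% of all did. Without the array the shares were 80.0% and 73.4%. The differences of the 2 populations correlated at r = 0.271, and at r = 0.387 without the array.

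**Figure D5:**
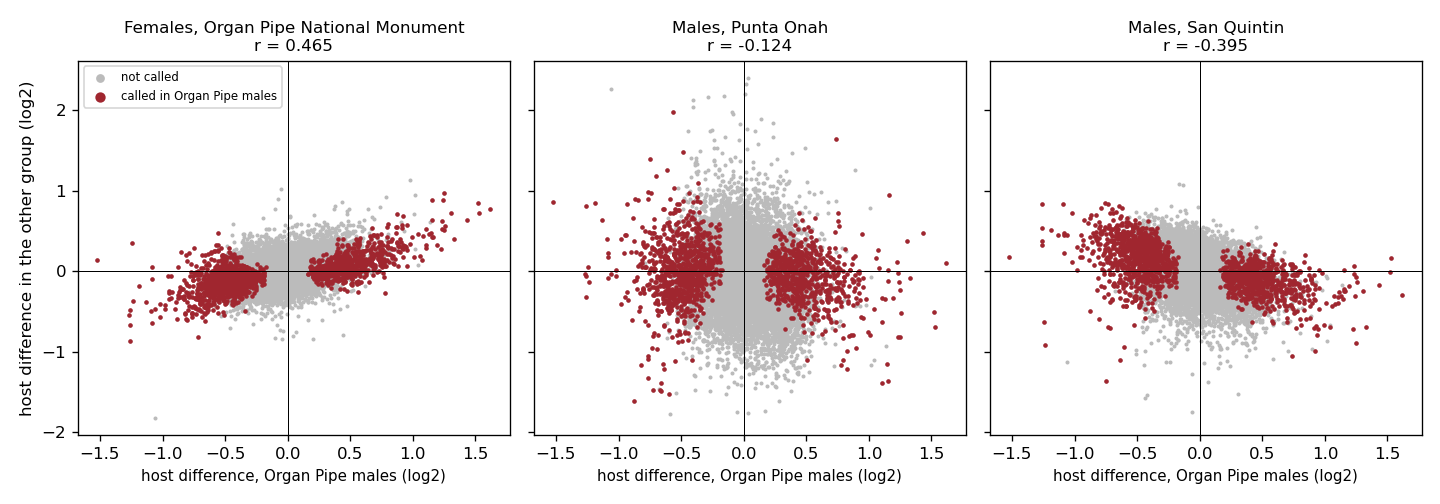
Host difference (log2, organ pipe minus agria) of each of 14528 transcripts in Organ Pipe males, horizontal axis, against that in females of the population, males of Punta Onah and males of San Quintin, vertical axis, all fitted without agria mated replicate 1. Red points passed the test in Organ Pipe males and grey points did not. The cloud runs upward for females (r = 0.465) and downward for San Quintin males (r = -0.395), with little slope for Punta Onah males (r = -0.124).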

How the data were processed

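The deposited table holds log2 values that the authors computed by RMA, which corrects background, normalizes arrays and summarises the probes of a transcript. The submitters' processing notes name RMA and give no version. The log2 scale was read from the values, which ran from 4.64 to 15.78. The arrays are single-colour 135K NimbleGen arrays with Cy3 label. Probe signals, slides and scan times were not used here, so background and batch could not be examined, and the number of arrays limits the precision. No 2 arrays held identical values (0 pairs).

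A mean for each of 32 groups was fitted to the 123 replicates with limma 3.58.1 (R 4.3.3), averaging San Quintin arrays with the same replicate number. The fit had 91 residual degrees of freedom. Contrasts were tested two-sided, with Benjamini-Hochberg adjustment over 14528 transcripts and calls at an adjusted p under 0.05. The 7 comparisons were host in all, mated and nonmated males, host by mating, host by sex, and host against Punta Onah and San Quintin males. Sex-bias classes (adjusted p under 0.05 and over 2-fold), the sex index and the mating sets came from the other 3 populations only. The fit was tested on simulated data in which each transcript had the same spread in every group. That test could not show what the wider spread of these males does to the calls. For each comparison the 2 higher and 2 lower called transcripts with the smallest p were named, for the main comparison only those also called without replicate 1 of mated males on agria with 1 sign in both mating states. The comparisons, lists and sets were chosen with earlier results of these data known. Lists of genes by function need gene names and were not run. Replicate numbers were not taken as pairs, because same-numbered agria and organ pipe arrays within a mating state were not alike throughout.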

Additional observations from a re-analysis of the deposited data

Results flagged for a closer look

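The sex index of replicate 1 of mated males on agria, 1.04, lay far from the other arrays of its group (4.54 to 4.86). Among the transcripts named in the text, 8 values lay as far from the other 3 arrays of their group. They were FBtr0163800 at 13.10 in that same array, FBtr0169422 at 11.50 in agria mated replicate 3, FBtr0161182 at 13.02 in agria nonmated replicate 4, FBtr0175494 at 12.01 and FBtr0164686 at 8.76 in organ pipe mated replicate 1, FBtr0165051 at 7.82 in organ pipe mated replicate 4, FBtr0169615 at 9.27 in organ pipe mated replicate 2, and FBtr0168340 at 11.29 in organ pipe nonmated replicate 2. These were 9 of 108 groups examined, and chance alone gives about 5%.

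Tests of the difference itself separated the host response of mated from that of nonmated males for 42 transcripts, that of Organ Pipe from that of Punta Onah males for 4611, and that of Organ Pipe from that of San Quintin males for 2599 (limma, adjusted p under 0.05). The named transcripts by mating differed by 1.66 (FBtr0169615), 1.16 (FBtr0161112), -1.56 (FBtr0164686) and -0.96 (FBtr0167297) on the log2 scale, and without replicate 1 of mated males on agria none of these 4 passed (limma, adjusted p 0.126 to 0.225). Against Punta Onah they differed by 1.61 (FBtr0169140), 1.32 (FBtr0163870), -2.53 (FBtr0166760) and -1.95 (FBtr0165111). Against San Quintin they differed by 0.90 (FBtr0167336), 1.06 (FBtr0167595), -0.65 (FBtr0174666) and -1.50 (FBtr0173421).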

How the results depend on the processing

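Counts are given in the order all males, mated, nonmated, host by mating, host by sex, against Punta Onah and against San Quintin; the values with all arrays were 1756, 1125, 645, 42, 0, 4611 and 2599. Fitted to the groups compared only, they were 0, 0, 0, 0, 0, 2954 and 53, and with the replicate block added 0, 0, 0, 0, 0, 2713 and 383. Array weights, whose estimation stopped with a convergence warning so that these counts are in doubt, gave 2228, 94, 2730, 0, 566, 4760 and 2677. Without both arrays of lowest sex index, chosen after seeing the data, the counts were 1109, 2, 820, 0, 1, 4161 and 1982. Quantile normalization moved host by mating to 111 and host by sex to 2, the median shift moved host by mating to 64, leaving out the dimmest transcripts moved them to 78 and 3, separate use of same-numbered San Quintin arrays moved host by mating to 19, and the trended, robust prior moved host by sex to 2; the other counts under these settings stayed within 1.5 times. Without 1 array the lowest and highest counts were 975 and 2601, 165 and 2655, 22 and 1476, 0 and 737, 0 and 42, 4069 and 4924, and 2040 and 3704. Without 1 replicate number in the groups of Organ Pipe males they were 284 and 3287, 121 and 3749, 18 and 708, 0 and 575, 0 and 158, 3461 and 4864, and 1297 and 4683. With agria mated replicate 1 already out they were 506 and 2750, 0 and 1478, 72 and 1667, 0 and 125, 0 and 218, 3936 and 4984, and 1496 and 3666. The sex index difference of 0.32 reversed to -0.13 without agria mated replicate 1, the lowest of its leave-one-out values (highest 0.50), and it was 0.50 with 50 and 0.27 with 500 transcripts in each direction. Male-biased calls, higher minus lower, reversed from 44 to -119 without that array. The fit to the 16 male arrays had both fewer residual degrees of freedom (12 against 91) and a larger median SD (0.330 against 0.274) than the fit to all groups. The cause of these changes was not tested. The 4 transcripts named for all males passed in 43 of 45 alternatives and missed only in the fits to the groups compared. They had been chosen for small p-values in the main fit and for passing without agria mated replicate 1, which is among the 45. The alternatives they passed all used the spread estimated over all groups, so the count is not independent support. Same-numbered agria and organ pipe arrays within a mating state were not alike throughout (8 pairs, r from -0.358 to 0.419, 4 over 0.1, and 1 of 8 best with its own number). The numbers were therefore not taken as pairs, and mated and nonmated arrays were not compared in this way. With the replicate number as a block in the fit to all groups the counts were 1752, 1129, 641, 34, 0, 4601 and 2744, and it changed no count by over 1.5 times.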
